A study of Arabidopsis thaliana with 6 samples.

Results

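The enzymes of ornithine and arginine synthesis were followed in the whole stage 15 flower of Arabidopsis thaliana, after fertilisation, in 3 samples of the atnaod mutant and 3 of the wild type. The mutant carries a T-DNA insertion in AtNAOD, which encodes N-acetylornithine deacetylase, so 1 of the enzymes described here is itself the disrupted gene. The labels name 1 T-DNA line and the wild type, on soil at 25 °C with days of 16 h and nights of 8 h, and give no allele number or ecotype. Each sample was a biological replicate that pooled about 100 flowers from 17 to 20 plants, and its total RNA was read on 1 single-colour Agilent array. The comparison asked how the transcripts of the route stood when its deacetylase gene carried the T-DNA. The arrays read RNA, so the activity of the step was not tested. In RNA of whole flowers, fewer cells of a type and less RNA per cell cannot be told apart.

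The set holds 10 genes, chosen by their locus codes: NAGS1 (AT2G22910), NAGS2 (AT4G37670), NAGK (AT3G57560), NAGPR (AT2G19940), TUP5 (AT1G80600), NAOGACT (AT2G37500), AtNAOD (AT4G17830), OTC (AT1G75330), argininosuccinate synthase (AT4G24830, ASSY here) and argininosuccinate lyase (AT5G10920, ASL here). They were read by 16 probes among the 43603 probes of the array, which cover 29030 locus codes. All 16 were above background on every array of at least 1 genotype and so entered the fit, which ran over 32496 probes. In 6 of the genes 2 probes were present, and the one with the higher mean over the 6 arrays is called the first. NAGS1, NAGS2, NAGK and NAOGACT had 1 probe each. A probe's place along its transcript was not analysed here.

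Plants make ornithine in the plastid from glutamate whose amino group is first covered by an acetyl group. N-acetylglutamate synthase adds the acetyl group, a kinase, a reductase and an aminotransferase turn the product into N-acetylornithine, and the acetyl group is then removed. It can be handed back to glutamate by an acetyltransferase (NAOGACT), which makes the route a cycle, or split off as acetate by a deacetylase (AtNAOD), which makes it linear. Ornithine transcarbamylase, argininosuccinate synthase and argininosuccinate lyase then carry ornithine to arginine, and both amino acids feed polyamine synthesis.

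The 75th percentile of processed intensity lay between 1355 and 2845 in atnaod and between 1318 and 3007 in wild type, and 73.2% to 79.2% of probes were above background. Samples 1 and 2 of both genotypes lay on 1 slide and sample 3 of both on another slide with its own scan, where that percentile was lowest (1355 in atnaod 3 and 1318 in wild type 3). Of 17 marker genes of carpel, ovule, petal, stamen, green organs, pollen and young seed, 16 were above background on all 6 arrays, and the seed gene IKU2 was on none. Of 3 root markers, none was above background on all arrays. A level below is the log2 of the processed intensity minus the array's 75th percentile, so 1 unit is a factor of 2, and levels of different probes are not comparable. A probe was called where limma gave an adjusted p under 0.05 over all probes tested, which 3.84% of them did.

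Some markers of carpel, ovule and young seed fell in the mutant flowers. Of the 16 flower marker genes tested, taking the first probe of each, 5 were called (31.2%), all of them lower in atnaod, where 1.99% of all probes were called lower. STK (log2 difference -0.73), SHP1 (-0.49) and SHP2 (-0.48) mark carpel and ovule, and BAN (-1.06) and TT2 (-1.02) mark the young seed coat. The second SHP2 probe stood at -0.26 and was not called (limma adjusted p = 0.185). CRC of the carpel list stood at 0.59, also not called (limma adjusted p = 0.0679). The first AG probe (-0.15), AGL62 (-0.35) and MINI3 (-0.83) were not called either. The 5 calls had limma adjusted p between 0.0295 and 0.0454, and whether they hold in other fits was not examined. Over all probes, calls fell from 1248 to 5 on the deposited values. The summed linear level of the 5 carpel and ovule genes was 10.4 to 11.3 in atnaod, against 14.9 to 16.4 in wild type, and that of the 4 detected seed genes 2.48 to 4.16 in atnaod, against 5.84 to 7.15 in wild type, each in units of the array's 75th percentile. The sums overlapped between the genotypes for the petal and stamen, green organ and pollen lists. A linear sum is set mostly by the probes of highest level, which here were among those called: STK (wild-type mean 3.03) and BAN (2.42). CRC (-2.74), AGL62 (-3.17) and MINI3 (-3.87) added little, so the sums do not describe each list as a whole. The part of tissue make-up in the enzyme values was not tested.

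The enzyme that removes the acetyl group as acetate was the one transcript of the set that changed by the test, and both its probes fell. The first AtNAOD probe (A_84_P18539) gave processed intensities of 12.8, 18.8 and 11.1 in atnaod 1 to 3, against 10252, 8045 and 4251 in wild type 1 to 3. The genotypes lay far apart, and the scanner software marked the probe as well above background in 0 of 3 atnaod and 3 of 3 wild-type samples. Its measured level averaged -7.14 ± 0.18 in atnaod, where it counts only as a bound, and 1.69 ± 0.07 in wild type (SD, n = 3 each). The bound was the lowest signal that counted as above background on each atnaod array, or the measured signal where that was higher. By that bound the signal of this probe was at least 369-fold lower in atnaod. A signal higher than that lowest one can still be unmarked, as in atnaod 3, so the bound is approximate. The probe entered the fit through the wild-type samples alone. Limma on the measured values gave adjusted p = 4.83e-07, which rests on atnaod values not well above background and does not test the bound. On values without background subtraction, as deposited, the log2 difference of the listed values was -6.37 (limma adjusted p = 0.000583).

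The second AtNAOD probe (A_84_P838586) did not vanish in the mutant. It was well above background in all 6 samples, with intensities of 220.1, 244.9 and 123.2 in atnaod 1 to 3, against 634.1, 496.3 and 372.9 in wild type 1 to 3. Its levels were -3.15, -3.54 and -3.46 in atnaod, against -2.25, -2.40 and -1.82 in wild type. The groups did not overlap, and atnaod 1 was the highest of the mutant samples. The ratio of atnaod to wild type was 0.427 (95% interval 0.320 to 0.570), a log2 difference of -1.23 (SE 0.176, limma adjusted p = 0.0286). On the slide of samples 1 and 2 the difference was -1.02 and on that of sample 3 it was -1.64. The call was lost without wild type 1, 2 or 3 (adjusted p = 0.0601, 0.1004 and 0.0892) and without atnaod 2 or 3 (adjusted p = 0.121 and 0.0708), and was kept without atnaod 1 (adjusted p = 0.0187). It was also lost on the deposited values (-0.96, adjusted p = 0.0865).

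The fall at the first AtNAOD probe, taken at the approximate bound given above, exceeded that at the second by at least 7.30 log2 units. An exact two-sided permutation test over samples, with the first probe at that bound in atnaod, gave p = 0.1, the smallest that 3 against 3 allows, and 0.6 after Benjamini-Hochberg adjustment over the 6 genes with 2 probes. In the other 5 such genes the changes of the 2 probes differed by between -0.01 and 0.08 log2 units (exact p between 0.8 and 1). The array annotates both AtNAOD probes to the same transcript model, and the position of each relative to the T-DNA was not tested.

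**Figure D1:**
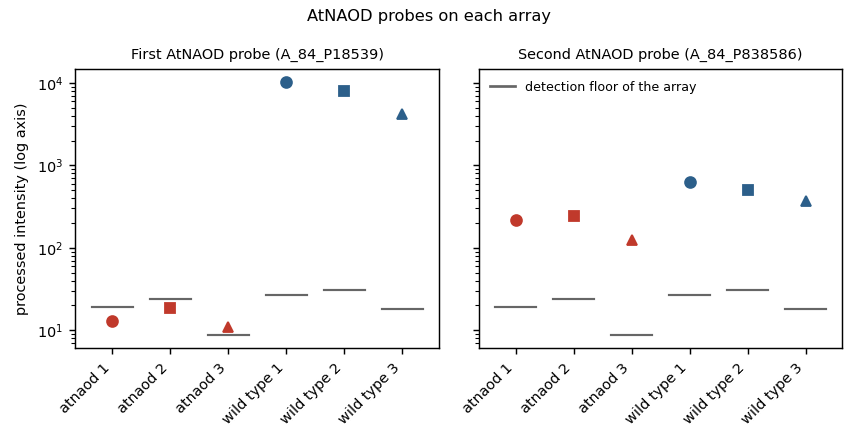
Processed intensity (log axis) of the first and the second AtNAOD probe on each array, atnaod samples in red and wild-type samples in blue. Grey bars mark each array's detection floor, the lowest intensity of any probe that counted as above background. The first probe gave 11.1 to 18.8 in atnaod and 4251 to 10252 in wild type, and the second 123.2 to 244.9 in atnaod and 372.9 to 634.1 in wild type. At the first probe the atnaod 3 point lies above the array's floor of 8.64, though the software did not mark that spot as well above background.

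Both AtNAOD probes were called lower in atnaod, which makes 2 of the 16 probes of the set. AtNAOD is the gene that carries the T-DNA, and its first probe entered the fit through the wild-type samples alone. These 2 calls therefore say nothing of the set as a whole. Of all probes tested 3.84% were called in either direction, 1.99% lower and 1.85% higher. Of the 14 probes of the other 9 enzymes limma called 0, and 1 had an unadjusted p under 0.05, where 23.9% of all probes had one. Their differences ran from -0.27 to 0.17 with a median of -0.10, beside a median of -0.0026 over all probes tested. Below 0 lay 10 of the 14, or 71.4%, against 50.5% of all probes, though 2 probes of 1 gene are not separate observations. That count rested on single wild-type samples: without wild type 3 it was 7 of 14 (against 48.0% of all probes), without wild type 2 it was 13 of 14 (against 51.6%) and without wild type 1 it was 9 of 14 (against 51.9%). The 95% intervals of all 14 lay inside a 2-fold change in either direction (1 log2 unit), and those of 12 lay inside 0.5 log2 units. The exceptions at that narrower limit were the second probes of OTC and ASSY.

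NAOGACT, which moves the acetyl group of N-acetylornithine to glutamate and so carries out the other ornithine-releasing reaction, stood slightly lower in the mutant without passing the test. Its levels were 1.63, 1.64 and 1.62 in atnaod 1 to 3, against 2.01, 1.79 and 1.88 in wild type 1 to 3. The mutant samples were almost equal to each other (SD 0.01, against 0.11 in wild type). All lay under the lowest wild-type sample, as at 15.7% of all probes tested. The log2 difference was -0.27 (SE 0.0929, 95% interval -0.48 to -0.05, limma adjusted p = 0.145), with -0.27 on the slide of samples 1 and 2 and -0.26 on that of sample 3. This is a ratio of 0.832 with an interval from 0.715 to 0.968. Over the alternative processings given below the log2 difference ran from -0.32 to -0.06, the smallest with normexp on the local background as it stands.

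**Figure D2:**
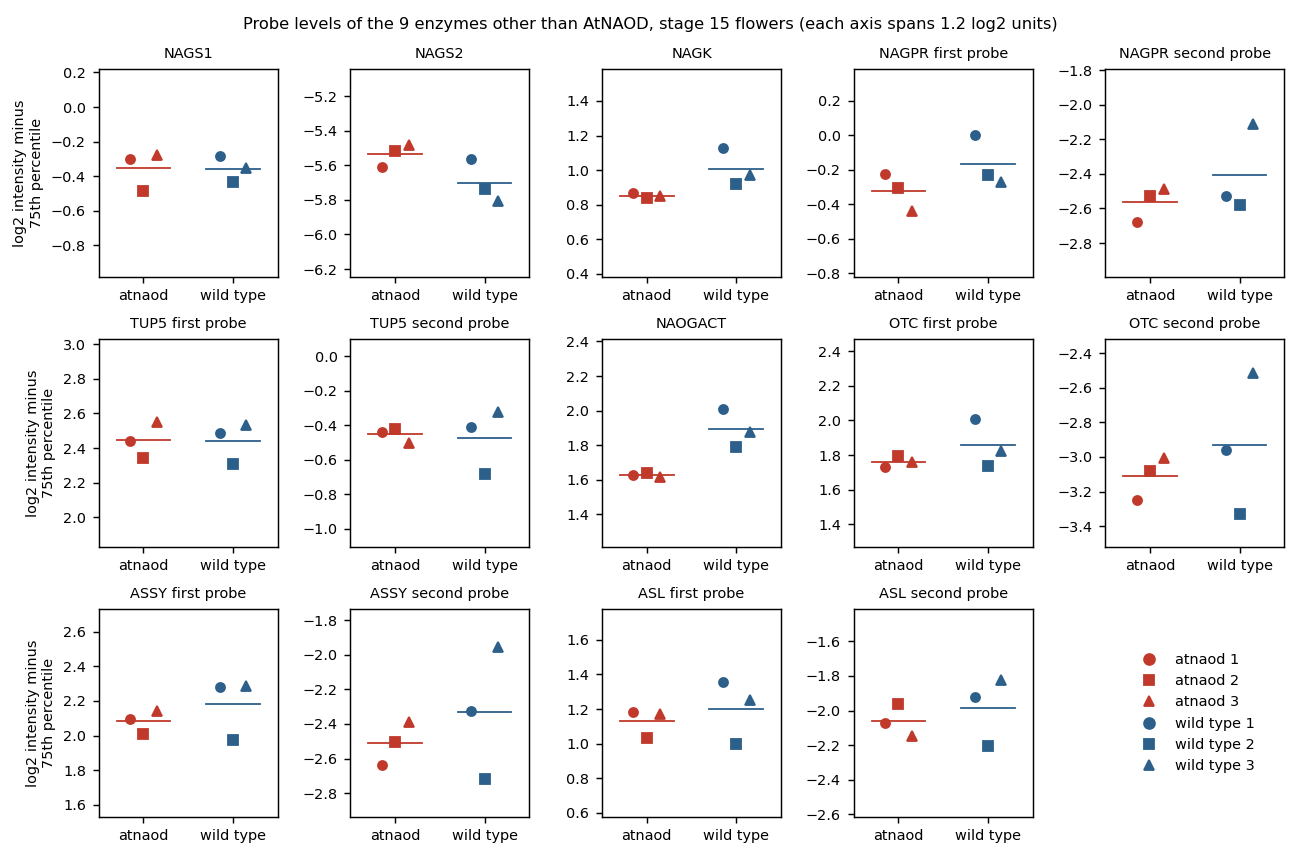
Levels (log2 processed intensity minus the array's 75th percentile) of the 14 probes of the 9 enzymes other than AtNAOD, 1 panel per probe, with atnaod samples left in red and wild-type samples right in blue. Symbols give the replicate number and bars the group mean, and each vertical axis spans the same distance. The genotypes are separate in the NAOGACT and NAGK panels and overlap in the other 12.

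The first enzymes of the route, which make and then activate N-acetylglutamate, showed no called change. NAGS1, an N-acetylglutamate synthase gene, had levels of -0.30, -0.49 and -0.28 in atnaod 1 to 3, against -0.28, -0.43 and -0.35 in wild type 1 to 3. The samples of the genotypes were interleaved, and the log2 difference was 0.00049 (95% interval -0.23 to 0.23), with a ratio of atnaod to wild type between 0.850 and 1.18. NAGS2, the second synthase gene, lay near the detection floor, at -5.61, -5.52 and -5.48 in atnaod, against -5.57, -5.74 and -5.81 in wild type. It was well above background in 3 of 3 atnaod and 2 of 3 wild-type samples, wild type 3 being the exception, and its log2 difference of 0.17 (95% interval -0.07 to 0.41, limma adjusted p = 0.357) had the highest value of the set. NAGS1 and NAGS2 are related genes, and whether their probes read each other's transcript was not tested.

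NAGK phosphorylates N-acetylglutamate and is the step that arginine inhibits. Its levels were 0.87, 0.84 and 0.85 in atnaod 1 to 3, against 1.13, 0.92 and 0.97 in wild type 1 to 3. The mutant samples again stood close together (SD 0.01, against 0.11 in wild type) and below every wild-type sample, by a mean of 0.15 (log2 difference -0.15, SE 0.0923, limma adjusted p = 0.358). With AtNAOD left out, NAOGACT and NAGK were the 2 of 14 probes whose genotypes did not overlap, both lower in atnaod, where 30.6% of all probes tested did not overlap and 15.7% lay lower.

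NAGPR, which reduces N-acetylglutamyl phosphate, gave nearly the same difference at both its probes. The first had levels of -0.23, -0.30 and -0.44 in atnaod, against 0.00, -0.23 and -0.27 in wild type, and the second -2.68, -2.53 and -2.49 in atnaod, against -2.53, -2.58 and -2.11 in wild type. The groups overlapped at both probes. The log2 differences were -0.16 and -0.16 (SE 0.112 and 0.143, limma adjusted p = 0.448 and 0.560), though on the slide of sample 3 the second probe stood at -0.37 and on the other slide at -0.05.

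TUP5, listed by RefSeq as WIN1, is the aminotransferase that yields N-acetylornithine, the substrate of both AtNAOD and NAOGACT. Its first probe read 2.44, 2.34 and 2.55 in atnaod, against 2.49, 2.31 and 2.53 in wild type. Its second probe read -0.44, -0.42 and -0.51 in atnaod, against -0.41, -0.68 and -0.33 in wild type. At neither probe did the genotypes separate, with log2 differences of 0.0037 (95% interval -0.24 to 0.25) and 0.02 (95% interval -0.25 to 0.29). As a ratio of atnaod to wild type, the first probe's interval ran from 0.845 to 1.19.

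Past ornithine, the 3 enzymes that lead to arginine gave 6 small negative differences, where 50.5% of all probes lay below 0. They come from 2 probes per gene read on the same arrays, so the 6 signs are not separate observations. Limma called 0 of the 6, and 0 had an unadjusted p under 0.05, where 3.84% and 23.9% of all probes did. Some of the signs rested on single samples. Without wild type 3 the second probes of OTC, ASSY and ASL stood at 0.032, 0.012 and 0.00057. Without wild type 1 the first ASL probe stood at 0.0017. The first probes of OTC (-0.15 to -0.02) and ASSY (-0.20 to -0.04) stayed below 0 whichever sample was left out. Both were above 0 in 1 alternative processing given below (0.081 and 0.090). OTC, which joins ornithine and carbamoyl phosphate into citrulline, had first-probe levels of 1.73, 1.79 and 1.76 in atnaod, against 2.01, 1.74 and 1.83 in wild type (log2 difference -0.09, 95% interval -0.33 to 0.14). ASSY, which joins citrulline and aspartate, read 2.09, 2.01 and 2.14 in atnaod, against 2.28, 1.97 and 2.29 in wild type (log2 difference -0.10, 95% interval -0.37 to 0.18). ASL, which releases arginine and fumarate, read 1.18, 1.04 and 1.17 in atnaod, against 1.35, 1.001 and 1.25 in wild type (log2 difference -0.07, 95% interval -0.35 to 0.20). In all 3 genes wild type 2 lay under or among the mutant samples, and the other wild-type samples lay above them.

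The second probes of these 3 genes were wider in spread. That of OTC read -3.25, -3.08 and -3.01 in atnaod, against -2.96, -3.33 and -2.51 in wild type, a log2 difference of -0.18 (SE 0.202). That of ASSY read -2.64, -2.50 and -2.39 in atnaod, against -2.33, -2.72 and -1.96 in wild type, a difference of -0.18 (SE 0.191). In both, wild type 3 was the highest and wild type 2 the lowest of the 6 samples. That of ASL read -2.07, -1.96 and -2.14 in atnaod, against -1.92, -2.20 and -1.83 in wild type, a difference of -0.08 (SE 0.123).

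**Figure D3:**
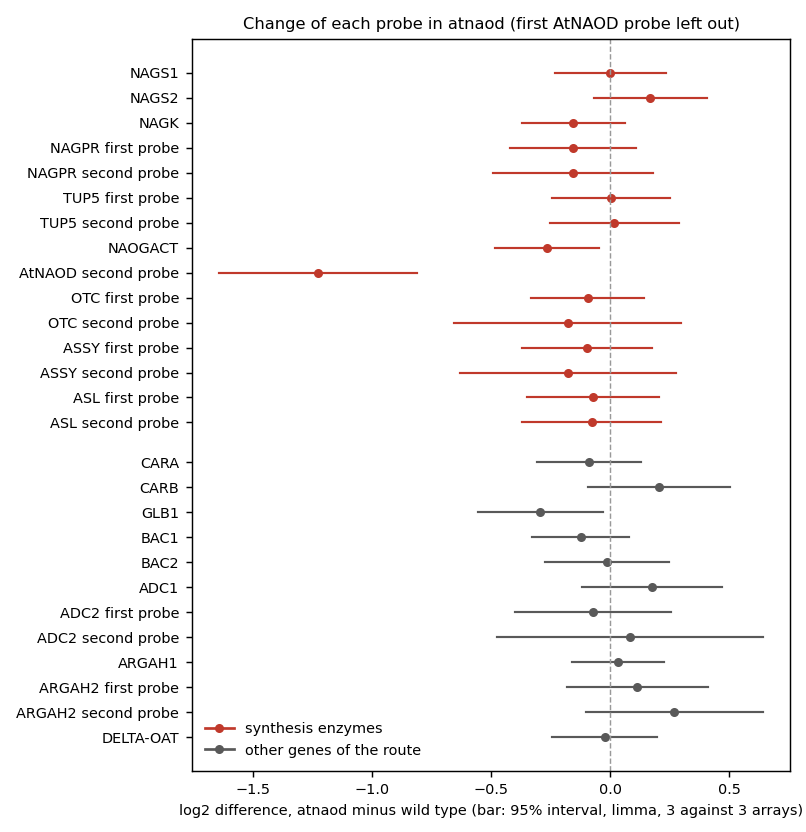
Log2 difference of each probe, atnaod minus wild type, with its 95% interval from limma on 3 against 3 arrays, for the synthesis enzymes (red) and for other genes of the route (grey). The first AtNAOD probe, which has only a bound in atnaod, is left out. Every interval but those of the second AtNAOD probe, NAOGACT and GLB1 contains 0.

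The enzymes varied together from array to array within the wild type, and the first and second probes did so differently. These counts were taken after the values were seen. Among the first probes, 8 of 10 were highest in wild type 1 of the 3 wild-type samples, and 8 of 10 were lowest in wild type 2, where 33.0% and 31.2% of all probes were. Among the 6 second probes, those of AtNAOD included, all were highest in wild type 3 and lowest in wild type 2, an order that 15.5% of all probes showed. All 6 have array IDs between A_84_P800000 and A_84_P899999, and of the 8295 probes tested in that range 27.8% showed this order, against 11.2% of the others. Sample 3 is also the one on the second slide, and which of these goes with the order was not tested.

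Set against the wild-type mean of each probe, the first probes of the 9 enzymes other than AtNAOD had a median of -0.06, -0.14 and -0.04 log2 units in atnaod 1 to 3, and 0.12, -0.10 and -0.02 in wild type 1 to 3. The 5 second probes had medians of -0.27, -0.12 and -0.07 in atnaod 1 to 3, and 0.01, -0.22 and 0.29 in wild type 1 to 3. Over all probes tested these medians stayed between -0.02 and 0.02 on every array. Wild type 2 thus stood with the mutant samples for these enzymes, and at the first probes wild type 3 (-0.02) also lay close to atnaod 3 (-0.04). The median difference over these 14 probes was -0.10 with all samples, -0.19 without wild type 2 and -0.0045 without wild type 3. Over all 16 probes, those of AtNAOD included, it was -0.13, -0.19 and -0.03 in the same order.

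**Figure D4:**
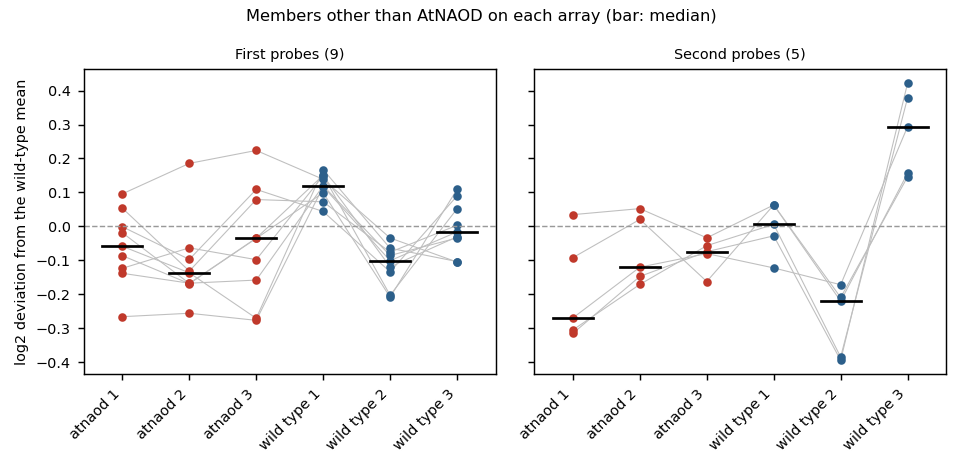
Deviation of each probe from its wild-type mean (log2 units) on each array, for the first probes (left) and second probes (right) of the 9 enzymes other than AtNAOD. Points are probes, thin lines join 1 probe across arrays and black bars are medians. Wild type 1 is raised and wild type 2 lowered for the first probes (medians 0.12 and -0.10), and wild type 3 is raised for the second probes (median 0.29).

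Around these enzymes, 10 further genes read by 12 probes gave 0 calls with limma, where 3.84% of all probes were called, and 1 of the 12 had an unadjusted p under 0.05, where 23.9% of all probes had one. Their median difference was 0.01 (6 probes below 0 and 6 above). The genotypes did not overlap at 2 of the 12, GLB1 and BAC1, both lower in atnaod, where 30.6% of all probes did not overlap and 15.7% lay lower. GLB1, the PII protein that binds NAGK and relieves its inhibition by arginine, had levels of -0.17, -0.50 and -0.40 in atnaod 1 to 3, against -0.10, -0.10 and 0.01 in wild type 1 to 3. The groups did not overlap, and the log2 difference was -0.29 (SE 0.111, 95% interval -0.56 to -0.03, limma adjusted p = 0.172). CARA and CARB, the small and large subunits of the enzyme that makes carbamoyl phosphate for OTC, stood at -0.09 (95% interval -0.31 to 0.13) and 0.20 (95% interval -0.09 to 0.50).

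The mitochondrial carriers of basic amino acids stood at -0.12 for BAC1, whose genotypes did not overlap, and at -0.01 for BAC2 (limma adjusted p = 0.436 and 0.955). Genes whose enzymes use arginine or ornithine had no called probe, though some intervals were wide. The arginine decarboxylase gene ADC1 stood at 0.17 (95% interval -0.12 to 0.47). ADC2 stood at -0.07 and 0.08 at its 2 probes, the second with a 95% interval from -0.48 to 0.64. The arginase gene ARGAH1 stood at 0.03, and ARGAH2 at 0.11 and 0.27, the second with a 95% interval from -0.10 to 0.64. The ornithine aminotransferase gene DELTA-OAT stood at -0.02 (95% interval -0.25 to 0.20). Of the 12 probes of the 10 further genes, 8 had intervals inside 0.5 log2 units. The 12 probes had adjusted p between 0.172 and 0.955.

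The neighbours of AtNAOD on chromosome 4 were read to see whether genes beside the T-DNA locus moved. Of the 2 protein-coding genes on each side, by the order of RefSeq's TAIR10.1 annotation, AT4G17810 and AT4G17850 were not above background on all arrays of either genotype and were not tested. AT4G17840, which overlaps the AtNAOD gene in that annotation, had first-probe levels of 2.35, 2.15 and 2.21 in atnaod 1 to 3, against 1.63 and 1.93 in wild type 1 and 2, the wild type 3 spot having been marked as an outlier and left out of the fit. The 3 mutant samples lay above the 2 wild-type samples, with a log2 difference of 0.46 (SE 0.135, limma adjusted p = 0.114). Its second probe, present in all samples, stood at 0.03 (95% interval -0.25 to 0.30). AT4G17800, on the other side, had levels of -3.20, -3.28 and -3.00 in atnaod, against -3.83, -3.47 and -3.72 in wild type. Its samples did not overlap, as at 30.6% of all probes tested, 4811 of them higher in atnaod. The difference of 0.51 (SE 0.129) was not called (limma adjusted p = 0.0730).

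Among 13209 tested probes of other genes with a symbol, the 5 whose 6 values ran most like those of the first AtNAOD probe were those of MRD1, LPA2, AMK2, MAP1D and CRR1, with Pearson correlations of 0.999, 0.997, 0.995, 0.992 and 0.992 over the 6 arrays. With 2 genotypes, such a correlation is high wherever replicates are tight and the genotypes differ, and it says nothing of size. The 5 were picked for likeness to a probe lower in atnaod, so their direction followed from the choice and their calls are no separate support. MRD1 read -5.37, -5.62 and -5.13 in atnaod, against 0.89, 1.14 and 1.11 in wild type (limma adjusted p = 1.07e-05). MAP1D was also called lower in atnaod, by a log2 difference of -0.41 (limma adjusted p = 0.0456). LPA2 (-0.37), AMK2 (-0.23) and CRR1 (-0.25) were not called (limma adjusted p = 0.0545, 0.139 and 0.120). The second AtNAOD probe correlated with the first at 0.945.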

How the data were processed

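Total RNA of 3 atnaod and 3 wild-type samples was labelled with Cy3 and read on 1 array each. Per the file headers, spot intensity was extracted with Agilent Feature Extraction 10.5.1.1 (10.5 per the submitters' processing notes), and the processed intensity is background-subtracted and detrended within the array, not normalized between arrays. The other columns used are flags that the scanner software set, per the file headers. The deposited value table also holds intensity, on a linear scale without background subtraction: in a check, each column equalled that array's median spot signal multiplied by a single factor (0.732 to 1.61).

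Control spots and the 2 to 35 outlier spots per array were left out, spots of 1 probe averaged on the log2 scale, and each array's 75th percentile subtracted. A probe was tested if either genotype had it well above background in 3 of 3 samples. Tests used limma 3.58.1 in R 4.3.3 (lmFit, eBayes, two-sided) per probe, with Benjamini-Hochberg adjustment over 32496 probes, after a test on simulated data. Intervals are 95% intervals of that fit. The number of arrays limits the precision. Named genes are the 10 enzymes, 10 listed genes of the route, 2 protein-coding neighbours on each side of AtNAOD and the 5 probes most like its first probe. Members and lists were chosen with earlier results of these data known. Gene symbols come from the RefSeq table of TAIR10.1, where all 10 loci were found. Its coordinates are not printed, since the file headers name another build, and no sequences are printed.

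Alternatives were quantile normalization, median centring, normexp (planned on the mean spot signal and run on the median), the deposited values, other filters and probe choices, other priors, array weights, replicate number or slide as a term, each slide alone, and leaving out each sample.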

Additional observations from a re-analysis of the deposited data

How the results depend on the processing

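The 9 enzymes other than AtNAOD had 0 calls among 269 probe-level results of 20 alternative fits, the lowest adjusted p being 0.0978 (NAOGACT, trended and robust prior), and the other genes of the route had 0 in each fit. The first AtNAOD probe stayed called in each fit that held it. Its atnaod signal was not well above background, so the following differences are of measured values and not sizes of a change: -8.94 to -8.78 when 1 sample was left out, -8.62 on the second slide alone, -6.00 and -6.17 with the 2 normexp settings, -6.37 on the deposited values and -5.03 as the mean with the second probe. The second kept its direction in all 19 alternatives that held it. It was not called with normexp on the local background as it stands (-1.54), with normexp after high local backgrounds were replaced (-0.914, chosen after seeing the data), on the deposited values (-0.959), with no filter on dim probes (-1.23), on the first slide alone (-1.02) or in 5 of 6 fits that left out 1 sample (-1.35 to -1.06 over the 6), and stood at -1.64 on the second slide alone. Each of those fits then called 1 of the 16 probes in place of 2, as did fits with 1 probe per gene, the mean over a gene's probes or a filter on all 6 arrays, which drop or merge an AtNAOD probe. Without 1 sample the count was 1 to 2.

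Over all probes 1248 were called, against 4 and 9 with the 2 normexp settings, 5 on the deposited values, 22 with no filter, 2402 with a trended and robust prior, 4040 with array weights, 2409 with slide as a term, 15 on the first slide alone and 13 to 1492 when 1 sample was left out. The cause was not tested. An unadjusted p under 0.05 was found for 7756 probes in the reported fit, and for between 1540 and 10074 in the alternatives. The correlations of same-number deviations were 0.195, 0.0943 and 0.552, so the numbers were not taken to pair the samples, and own number was the best match for 2 of 3 atnaod and 1 of 3 wild-type samples. The replicate block called 1329 probes and the same 2 of the set, with adjusted p = 0.0401 for the second AtNAOD probe.

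Differences near 0 changed sign, none of them called. With quantile normalization NAGS1 stood at -0.0045, and with median centring BAC2 at 0.0069. Normexp on the local background as it stands, where 5 spots of wild type 1 had a background over 10 times the median and all probes shifted by a median of -0.28, gave NAGS2 -1.30, NAGK 0.048, the second TUP5 probe -0.041, the first probes of OTC 0.081, ASSY 0.090 and ASL 0.063, CARA 0.11, BAC2 0.13, the first ADC2 probe 0.077, ARGAH1 -0.071, DELTA-OAT 0.14 and AT4G17800 -0.76. With those backgrounds replaced the first TUP5 probe stood at -0.025, BAC2 at 0.0013 and ARGAH1 at -0.0087, and on the deposited values at -0.024, 0.0035 and -0.0054. The mean over its probes put ADC2 at 0.0064. Array weights gave NAGS1 -0.044, the first TUP5 probe -0.024, the second ASL probe 0.00028 and the second ADC2 probe -0.019. The first slide alone gave NAGS1 -0.037, the first TUP5 probe -0.0042 and the second ASL probe 0.043. When 1 sample was left out, NAGS1 ran from -0.039 to 0.066, the TUP5 probes from -0.063 to 0.054 and -0.087 to 0.091, the second OTC probe from -0.38 to 0.032, the second ASSY probe from -0.37 to 0.012, the ASL probes from -0.17 to 0.0017 and -0.19 to 0.00057, BAC2 from -0.079 to 0.069, the second ADC2 probe from -0.14 to 0.31, the first ARGAH2 probe from -0.00092 to 0.19, DELTA-OAT from -0.073 to 0.0042 and the second AT4G17840 probe from -0.057 to 0.11.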
